A study of Mus musculus with 6 samples.

Results

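Collagen genes encode the protein chains of collagen, the main structural protein of the extracellular matrix. They were taken from uterine arrays of ovariectomized mice as every gene whose symbol is Col, a number, the letter a and a number. Of 18193 named genes on the array, 42 met that rule: 11 fibrillar collagens, 6 basement membrane (type IV) collagens and 25 of other kinds. The chips were 6 Affymetrix expression arrays, 3 from mice that received sesame oil and 3 from mice that received progesterone.

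All mice of both groups were females with the genotype GATA2 f/f (a conditional allele of Gata2 flanked by recombination sites) on a mixed background, and the labels name no recombinase. Ovaries were removed at 6 weeks of age, which removes the main source of progesterone and oestrogen. At 8 weeks the oil group had the vehicle alone and the progesterone group had 1 mg per mouse in 100 µl of oil, and uteri were taken 6 h later. RNA of 3 mice was pooled for array analysis, and the labels do not say whether the arrays of a group are separate pools. The spread between arrays, and each p-value, may therefore be partly technical. The question put by the design is which uterine transcripts differ shortly after progesterone.

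Collagen chains fold in threes into a triple helix, from 1 gene's chain or from the chains of several genes. Fibrillar collagens are secreted as procollagen, trimmed, assembled into fibrils and cross-linked by lysyl oxidases, and fibril-associated collagens sit on the surface of those fibrils. Type IV collagen forms the network of basement membranes under epithelium and around vessels and muscle. In the uterus most fibrillar collagen lies in the endometrial stroma and between the muscle layers, where it is remodelled over the cycle and in pregnancy.

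Values are log2 expression levels from robust multi-array averaging (RMA), with 1 probe set per gene, and a change is the progesterone mean minus the oil mean. A gene is said to have risen or fallen where limma's adjusted p (Benjamini-Hochberg over all 18193 genes) was under 0.05. The bacterial TrpnX control probe sets, which match no mouse RNA, read 2.87 to 3.34 and serve as background. Levels of different probe sets cannot be compared with each other, because each binds with its own efficiency.

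After progesterone 4 collagen genes rose and 2 fell. Col12a1 rose by 2.24 (4.71-fold), Col15a1 by 1.05 (2.07-fold), Col22a1 by 0.76 (1.69-fold) and Col11a1 by 0.66 (1.58-fold). Col4a4 fell by 0.60 (1.52-fold) and Col27a1 fell by 0.59 (1.51-fold). The other 36 did not pass, so 14.3% of the collagens were called, beside 11.7% of all genes tested. Over all genes 5.92% were called higher and 5.83% lower. The share of collagens called was thus near the background, and the median change of the 42 was 0.06, beside -0.02 over all genes. For 12 of the 42 (28.6%) the arrays of the groups did not overlap, beside 30.4% of all genes. An unadjusted p under 0.05 was reached by 13 of the 42 and by 26% of all genes. A change of 1.5-fold or more, passing or not, was seen for 8 of the 42 collagens and for a smaller share of all genes (1727 of 18193). The calls fell on single members, and none of the classes had more than 3 calls.

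With the replicate number as a block, the calls among collagens went to 6 higher and 4 lower, beside 16.1% of all genes called with it (7.6% higher and 8.49% lower). All 6 calls were also made with the block, and Col1a1 and Col7a1 (higher) and Col25a1 and Col8a1 (lower) were added. Without 1 array in turn, Col12a1 and Col22a1 passed in all 6 fits. The other calls were each lost in most of these fits, as given below. With 1 array left out the share of all genes called was lower too, at 3.61% to 9.65%.

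**Figure D1:**
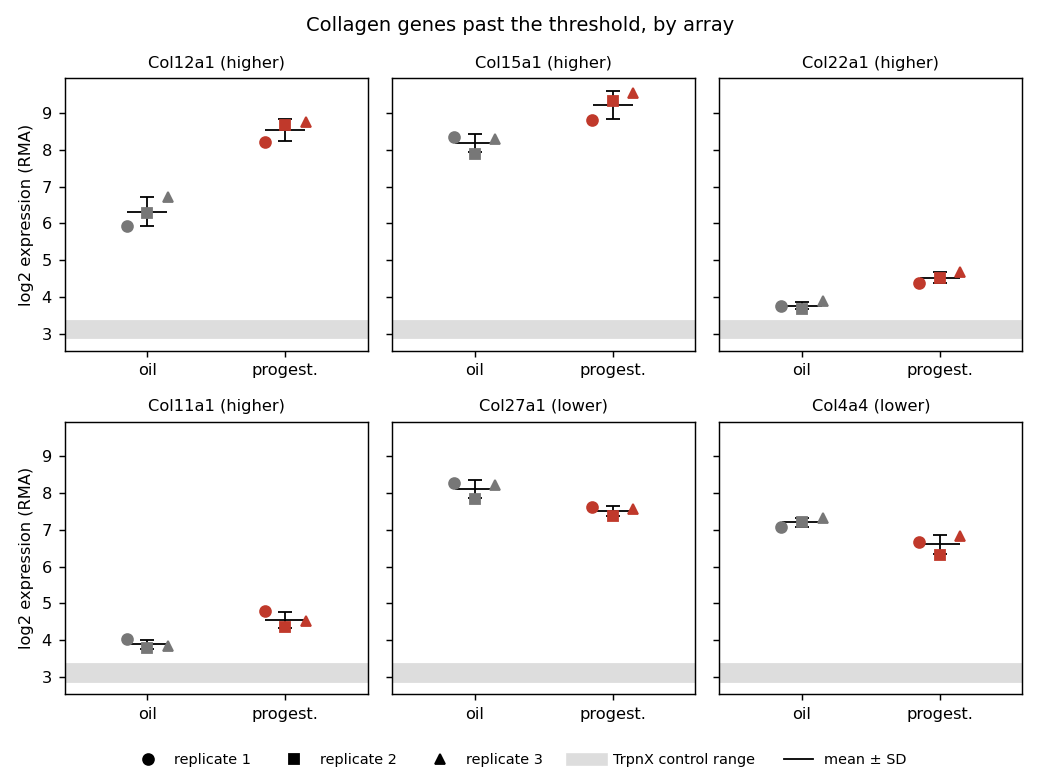
Log2 expression of the 6 collagen genes past the threshold, with 1 point per array, the group mean and SD, and the range of the TrpnX controls (2.87 to 3.34) in grey. The groups do not overlap in any panel, and the oil arrays of Col22a1 and Col11a1 lie close to the control range.

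Among the 11 fibrillar collagens, Col11a1 rose, Col27a1 fell and 9 did not pass, with a median change of 0.07. Both of these genes encode chains of less common fibrils. Col11a1 encodes a chain of type XI collagen, a regulator of fibril diameter best known from cartilage, and Col27a1 encodes type XXVII collagen, also known from cartilage and its growth plate.

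Col11a1 read 4.03, 3.79 and 3.84 on the oil arrays and 4.78, 4.35 and 4.52 on the progesterone arrays. All progesterone arrays were above all oil arrays, but the oil mean was less than 1 log2 unit above the highest control value. The change was 0.66 (SE 0.134, 95% interval 0.35 to 0.98, n = 3 per group, limma adjusted p 0.0231). Its second probe set read 3.19, 3.58 and 3.77 on oil and 4.23, 4.51 and 4.15 on progesterone, and passed as well (0.78, adjusted p 0.0309 over the 34945 probe sets with 1 gene symbol, of which 8.99% passed). Leaving out any 1 of the 3 oil arrays or progesterone 3 ended the call (adjusted p up to 0.0953). The partner chain Col11a2 (0.06) and the cartilage collagen Col2a1 (-0.06) did not pass, and both read within 1 log2 unit of the highest control value. Of 5 cartilage markers (Acan, Matn1, Matn3, Hapln1, Sox9) none passed (0 with an unadjusted p under 0.05), their summed level was 6.64 to 7.29 on oil and 6.599 to 7.18 on progesterone, and Matn1 was at background.

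Col27a1 read 8.27, 7.84 and 8.22 on oil and 7.61, 7.37 and 7.57 on progesterone. Each progesterone array was below each oil array, in contrast to Col11a1, and the levels were far above background. The fall was -0.59 (SE 0.14, 95% interval -0.92 to -0.26, adjusted p 0.0375). Its other probe set moved by -0.54 without passing (adjusted p 0.0646, and 0.0259 with the replicate block). With 1 array left out the call held only without oil 2, and elsewhere the adjusted p went up to 0.123. With the mean of S100a8 and S100a9 as a covariate the change was -0.60 and missed the threshold (adjusted p 0.0516).

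Promoter windows from RefSeq (GRCm38.p6, 250 bases before to 50 after the start) matched 33 of the 42 collagens, 4 of the 6 called ones among them. The bases before the start are printed for Col11a1 and Col27a1, the fibrillar genes that moved in opposite directions. They lie at chr3:114030290-114030539 and chr4:63215162-63215411, both on the plus strand. Capitals mark a GC box (GGGCGG) or a CCAAT box, which reads ATTGG where it lies on the other strand.
Col11a1: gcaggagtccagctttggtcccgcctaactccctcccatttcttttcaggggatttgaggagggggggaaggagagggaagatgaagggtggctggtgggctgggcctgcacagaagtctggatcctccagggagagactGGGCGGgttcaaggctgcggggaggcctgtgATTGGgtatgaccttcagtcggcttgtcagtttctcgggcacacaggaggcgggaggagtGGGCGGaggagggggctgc
Col27a1: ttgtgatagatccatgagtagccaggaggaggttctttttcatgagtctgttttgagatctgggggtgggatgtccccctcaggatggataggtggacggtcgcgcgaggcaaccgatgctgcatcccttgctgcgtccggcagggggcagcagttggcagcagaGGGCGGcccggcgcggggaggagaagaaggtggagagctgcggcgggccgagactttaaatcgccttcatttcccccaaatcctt

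The windows were GC-rich, with 62.3% G or C for Col11a1 and 61.7% for Col27a1 over the 300 bases. Col11a1 held GC boxes beginning at -110 and -19 and a CCAAT box on the other strand at -79. Col27a1 held GC boxes beginning at -85 and, on the other strand, at 44 after the start. Searched on both strands, GGGCGG was in 61.1% of the 36 collagen windows and in 35.7% of all 32851 windows, CCAAT in 36.1% and 37.4%, and TATAAA in 13.9% and 13.6%. AGAACA, the 6-base unit that steroid receptors including the progesterone receptor bind as a pair, was in 2 collagen windows (Col20a1 and Col9a1, 5.56%) and in 19% of all. The GATA factor motifs AGATAA and TGATAA were in 2 and 0 collagen windows, beside 11.2% and 9.05% of all. None of the 4 called collagens with a window held the steroid receptor unit or a GATA motif there, and Col15a1 held none of the motifs searched. The called genes Col12a1 and Col22a1 had no window, and 4 windows are too few to set against the share of all windows. A match describes these letters only.

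Type I collagen, the most widespread fibril-forming collagen, is built from chains of Col1a1 and Col1a2. On the probe set chosen by the rule, Col1a1 read 9.19, 9.0 and 9.74 on oil and 9.72, 10.08 and 10.11 on progesterone. Only oil 3 and progesterone 1 overlapped, by 0.02. The difference was 0.66 (SE 0.206, 95% interval 0.17 to 1.15, 1.58-fold) and did not pass (adjusted p 0.0876). It passed with the replicate block (0.0338), without oil 3 (0.027), with the mean of the gene's probe sets (0.0255) and with the S100a8 and S100a9 covariate (0.0415).

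The other Col1a1 probe set had almost the same mean over the 6 arrays (9.63 beside 9.64). It read 8.99, 8.85 and 9.47 on oil and 10.17, 10.27 and 10.05 on progesterone, with no overlap. There the difference was 1.06 (SE 0.167, 95% interval 0.67 to 1.45, 2.08-fold, adjusted p 0.0111 over all probe sets). Whether Col1a1 counted as higher therefore turned on the choice between probe sets whose means differed by less than the spread of either.

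Col1a2 read 12.94, 12.84 and 13.22 on oil and 12.58, 13.20 and 13.12 on progesterone, with full overlap. Its difference was -0.03 (95% interval -0.47 to 0.40, adjusted p 0.945), and its other probe sets gave 0.09 and -0.20 (adjusted p 0.745 and 0.433). Within each array, Col1a1 minus Col1a2 was -3.75, -3.84 and -3.48 on oil and -2.86, -3.12 and -3.01 on progesterone. The within-array difference was higher on every progesterone array, by 0.69, and by 1.09 with the other Col1a1 probe set. The exact permutation test (two-sided) over the 20 splits of the arrays gave 0.1, the smallest value 3 against 3 can give, and 0.18 after adjustment over 9 chain pairs. Such a result was not particular to type I collagen. The same test gave 0.1 for Col11a1 minus Col11a2 (0.60), Col4a3 minus Col4a4 (0.32), Col6a1 minus Col6a2 (-0.28) and Col9a1 minus Col9a2 (-0.44).

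**Figure D2:**
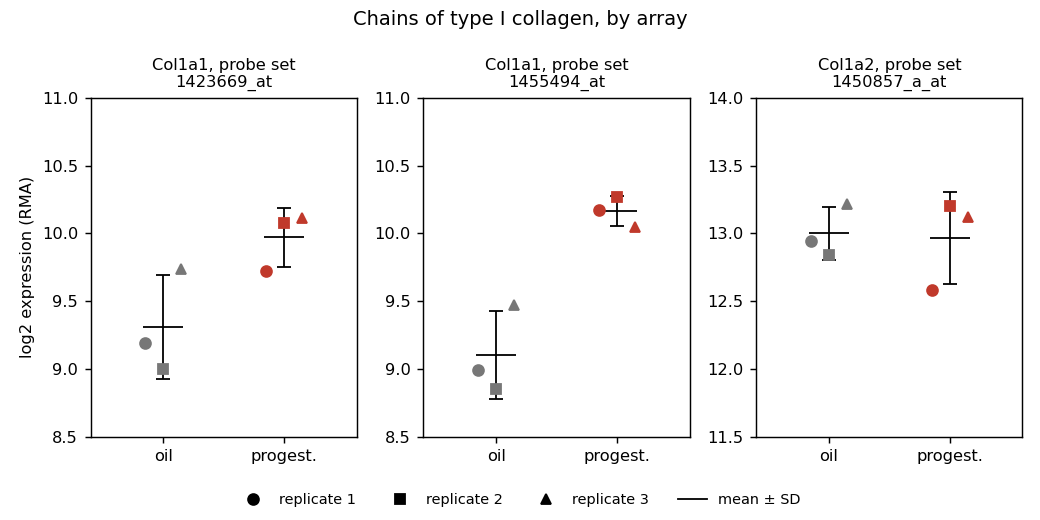
Log2 expression of both Col1a1 probe sets and of Col1a2, with 1 point per array and the group mean and SD. The chosen Col1a1 probe set (left) overlaps by 0.02, the other (middle) separates the groups, and Col1a2 (right) overlaps fully.

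The remaining fibrillar genes did not pass. Col3a1, the type III collagen that is plentiful in soft, distensible tissue, read 12.74, 12.70 and 13.24 on oil and 12.87, 13.40 and 13.44 on progesterone (0.34, 95% interval -0.14 to 0.83, adjusted p 0.359). Its second probe set gave 0.52 (adjusted p 0.191, and 0.0266 with the replicate block). Type V collagen, which nucleates type I fibrils, gave 0.04 for Col5a1 (95% interval -0.16 to 0.24), 0.09 for Col5a2 and 0.07 for Col5a3. The interval of Col5a1 was narrow around 0, whereas that of Col5a2 ran from -0.48 to 0.67. Col24a1 had group means of 3.13 on oil and 3.31 on progesterone, both below the highest control value.

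Of the 6 type IV genes, Col4a4 fell, none rose and 5 did not pass, with a median change of 0.05. The classical network is made of Col4a1 and Col4a2, and the other chains, Col4a3 with Col4a4 and Col4a5, or Col4a5 with Col4a6, form networks with a more restricted distribution. Each pair of genes is arranged head to head in the genome.

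Col4a4 read 7.09, 7.21 and 7.33 on oil and 6.66, 6.32 and 6.84 on progesterone, without overlap. The change was -0.60 (SE 0.148, 95% interval -0.95 to -0.26, adjusted p 0.0426). A second probe set gave -0.43 (adjusted p 0.114) and the remaining one, near background, gave -0.08. This call was the closest to the threshold: with 1 array left out it held only without progesterone 3 (adjusted p up to 0.131 elsewhere), and it was lost with quantile renormalization (0.0563), with the mean of the probe sets (0.075) and with the S100a8 and S100a9 covariate (-0.63, adjusted p 0.052).

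The head-to-head neighbour Col4a3 read 6.31, 6.31 and 6.45 on oil and 6.21, 5.85 and 6.16 on progesterone. Its arrays did not overlap either, but the difference of -0.28 did not pass (adjusted p 0.192). Within arrays, Col4a3 minus Col4a4 was higher after progesterone by 0.32, with no overlap (exact permutation p 0.1, 0.18 adjusted over the 9 pairs). In the RefSeq models, 179 bases of the Col4a4 promoter window lie inside the Col4a3 gene. The models of both genes overlap at their starts, since the Col4a4 model extends past the start used for the window. The bases between that start and the Col4a3 gene therefore lie inside the Col4a4 model. The 71 bases printed, on the minus strand at chr1:82586850-82586920 (GRCm38.p6), lie before the window's Col4a4 start and outside the Col4a3 gene. They hold none of the motifs searched and are 69% G or C.
Col4a4: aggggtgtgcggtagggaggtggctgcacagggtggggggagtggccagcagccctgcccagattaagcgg

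Col4a5 was the highest changed of its class without passing. It read 9.62, 9.82 and 10.10 on oil and 10.13, 10.13 and 10.14 on progesterone, so the groups were close but did not overlap (0.29, 95% interval -0.02 to 0.59, adjusted p 0.223). Col4a1 read 10.87, 10.89 and 11.09 on oil and 10.73, 11.22 and 11.12 on progesterone (0.07, 95% interval -0.27 to 0.42). Col4a2 gave 0.03 and Col4a6 0.17. The windows of Col4a1 and Col4a2 share 78 bases, and Col4a1 minus Col4a2 was 1.36, 1.30 and 1.29 on oil and 1.40, 1.27 and 1.42 on progesterone. That difference hardly moved, by 0.05 (exact permutation p 0.4), although both genes varied between arrays of a group.

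Among the 9 fibril-associated collagens, Col12a1 and Col22a1 rose and 7 did not pass, with a median change of 0.06. Col12a1 encodes type XII collagen, which binds type I fibrils and links them to their surroundings in dense connective tissue. It read 5.94, 6.27 and 6.73 on oil and 8.21, 8.67 and 8.77 on progesterone. The lowest progesterone array lay well above the highest oil array. Its rise was 2.24 (SE 0.228, 95% interval 1.70 to 2.77, adjusted p 0.00316), and with 1 array left out it ranged from 2.05 to 2.45 (adjusted p 0.00451 to 0.0209). The rise was the largest change of any collagen in either direction.

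The other Col12a1 probe sets did not give the same size. The next one read 4.77, 4.57 and 4.98 on oil and 5.11, 5.55 and 5.30 on progesterone, again without overlap (0.55, adjusted p 0.0677 over all probe sets). The remaining pair of probe sets were near background, with group means of 3.48 and 3.41 for one and 3.28 and 3.29 for the other.

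Col22a1 encodes type XXII collagen, known from tissue junctions such as that of muscle and tendon. It read 3.74, 3.67 and 3.88 on oil and 4.38, 4.52 and 4.67 on progesterone. Every progesterone array was above every oil array, at a level where the oil mean was within 1 log2 unit of the highest control value. The rise was 0.76 (SE 0.111, 95% interval 0.50 to 1.02, adjusted p 0.00835), and it passed with 1 array left out (adjusted p up to 0.0442). Its other probe sets gave 0.36 and 0.33 and did not pass (adjusted p 0.286 and 0.232).

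Of the fibril-associated genes that did not pass, Col14a1, a relative of Col12a1, spread widely within groups. It read 7.07, 7.68 and 8.93 on oil and 6.92, 8.19 and 8.16 on progesterone, so a change between -1.36 and 1.09 lies within its 95% interval (-0.14, adjusted p 0.916). Col9a2, a type IX chain, read 3.89, 4.06 and 4.18 on oil and 4.60, 4.42 and 4.27 on progesterone (0.39, adjusted p 0.0931). Col16a1 (-0.11), Col20a1 (0.06), Col9a1 (-0.06), Col9a3 (0.11) and Col19a1 (0.01) did not pass.

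The 5 beaded filament collagens, the type VI chains that form fine filaments around cells, had no call (0 with an unadjusted p under 0.05) and a median change of 0. Col6a1 read 11.82, 11.72 and 12.00 on oil and 11.86, 12.02 and 11.73 on progesterone (0.02, 95% interval -0.25 to 0.30, adjusted p 0.939). Col6a2 gave 0.30 (adjusted p 0.193), Col6a3 gave 0 (95% interval -0.31 to 0.31) and Col6a4 gave -0.44 (adjusted p 0.235). Col6a5 was near background. Col6a4 passed as lower in the fit with the S100a8 and S100a9 covariate (-0.60, adjusted p 0.0348). Col6a1 minus Col6a2 was 0.21, 0.36 and 0.24 on oil and 0.12, 0.04 and -0.19 on progesterone, lower on each progesterone array (-0.28, exact permutation p 0.1, 0.18 adjusted).

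Anchoring, short-chain and multiplexin collagens were 7 genes with 1 rise, Col15a1, and a median change of 0.30. Col15a1 encodes type XV collagen, a proteoglycan of the zone between basement membranes and fibrils. It read 8.35, 7.90 and 8.30 on oil and 8.81, 9.33 and 9.55 on progesterone, without overlap. The rise was 1.05 (SE 0.211, 95% interval 0.55 to 1.54, adjusted p 0.023). It passed without oil 3 or progesterone 1, and not without any other array (adjusted p up to 0.0873). No other probe set of Col15a1 was on the array.

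Its relative Col18a1, the type XVIII collagen of basement membranes, read 10.45, 10.30 and 10.34 on oil and 10.83, 10.66 and 10.50 on progesterone. The arrays did not overlap, and the difference of 0.30 did not pass (adjusted p 0.139). Col7a1, whose product anchors epithelial basement membranes, gave 0.44 (adjusted p 0.19, and 0.0439 with the replicate block). Col8a1, a short-chain collagen of vessels and other tissues, gave -0.44 (0.182, and 0.0304 with the block). Col26a1 (0.34), Col8a2 (0.16) and Col10a1 (-0.09) passed in neither fit.

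The 4 transmembrane collagens, which span the cell membrane with the collagen part outside, had no call (1 with an unadjusted p under 0.05) and a median change of -0.35. Col25a1, the lowest of all collagens by change, read 6.42, 6.16 and 5.36 on oil and 5.75, 5.16 and 4.77 on progesterone. The groups overlapped, but each progesterone array was below the oil array of the same number. Its difference was -0.75 (95% interval -1.53 to 0.02, adjusted p 0.204), and it passed only with the replicate block (0.0106). The other Col25a1 probe set, with a mean of 5.39 beside 5.60, did not show this fall. It gave -0.05 and did not pass (limma adjusted p 0.876, and 0.852 with the block). Col17a1, a protein of epithelial attachment sites, gave -0.52 (adjusted p 0.133), Col13a1 gave -0.18 and Col23a1 gave 0.22.

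**Figure D3:**
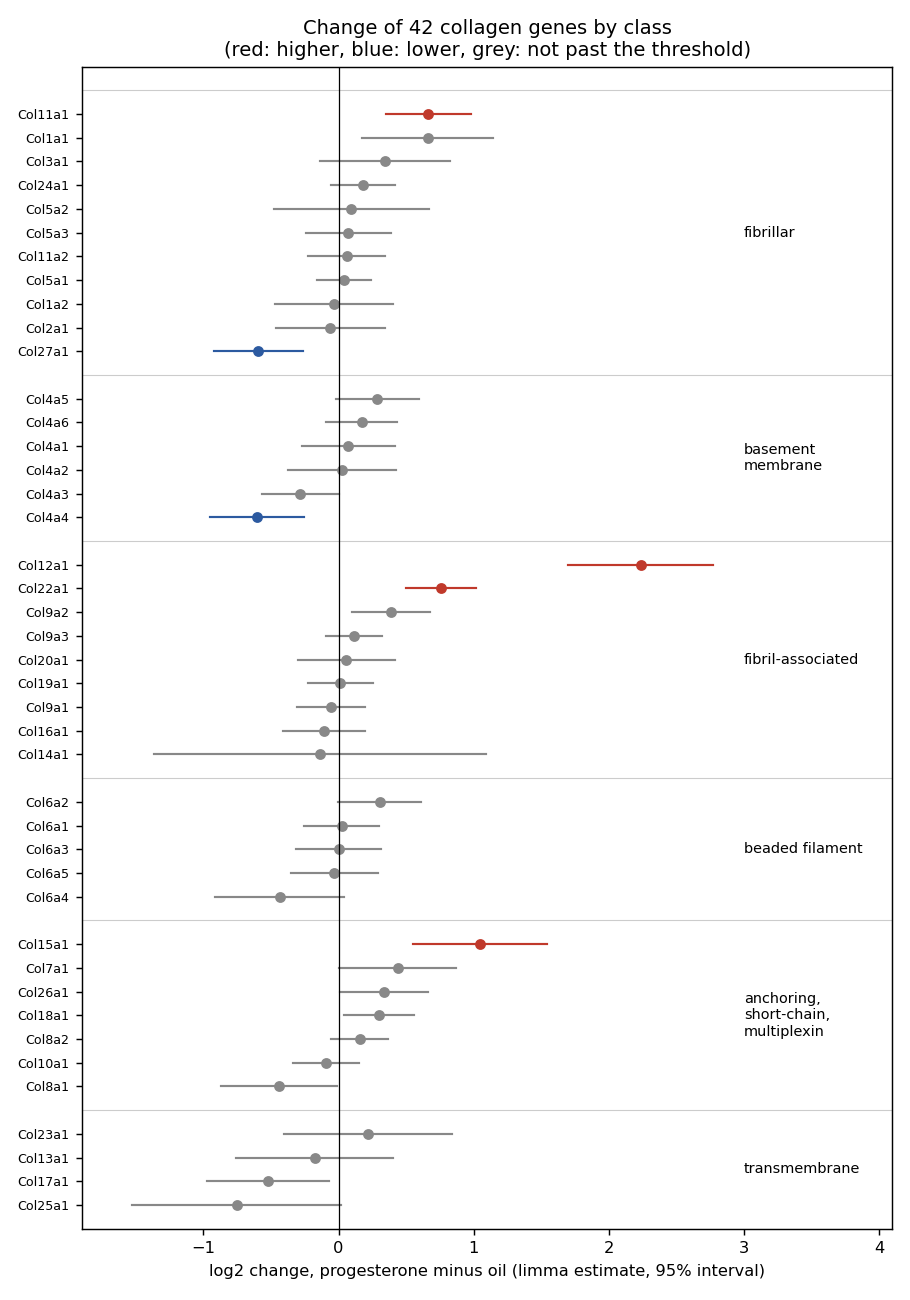
Change of each of the 42 collagen genes, progesterone minus oil on the log2 scale, with limma's 95% interval for single genes, grouped by class (red higher, blue lower, grey not past the threshold). Calls are scattered over the classes, from -0.60 for Col4a4 to 2.24 for Col12a1, and Col14a1 has the widest interval.

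The 42 genes had 82 probe sets on the array, 15 genes with 1 and 27 with several. Of the 40 probe sets not chosen, 23 had a mean more than 1 log2 unit above the highest control value. Among these, 17 changed in the same direction as the chosen probe set, 5 in the opposite direction (those of Col1a2, Col20a1, Col23a1, Col4a1 and Col5a2) and 1 by exactly 0. Only 2 of the 40 passed, those of Col11a1 and Col1a1. In both groups, 7 collagens (Col10a1, Col11a2, Col19a1, Col24a1, Col26a1, Col2a1 and Col6a5) read within 1 log2 unit of the highest control value or below, where array values can understate a change, and 31 read more than 1 unit above it.

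Several strongly detected collagens had a wider range between arrays of a group than between the group means. Col1a2, Col3a1, Col5a2, Col4a1 and Col4a2 were each above their own mean on oil 3, progesterone 2 and progesterone 3 and below it on the other arrays. Col6a1, Col6a3 and Col18a1, also strongly detected, did not follow that pattern. Col6a2 departed from it only on progesterone 1, which read 11.74 beside a mean of 11.73. Some transcripts of immune cells were highest on oil 3, progesterone 2 and progesterone 3 too. S100a8, a neutrophil protein, read 4.92, 4.34 and 11.82 on oil and 5.01, 12.02 and 12.48 on progesterone. Csf1r, the macrophage growth factor receptor, read 8.76, 9.63 and 10.18 on oil and 8.41, 10.15 and 10.12 on progesterone. The summed level of the 4 neutrophil markers measured ran from 6.14 to 12.71 on oil and from 6.30 to 13.32 on progesterone, and that of 5 macrophage markers from 9.67 to 11.18 and from 9.39 to 11.29. None of the 9 markers passed (0 with an unadjusted p under 0.05), and their part in the collagen levels was not tested beyond the fits that follow.

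With the mean of S100a8 and S100a9 as a covariate, Col12a1 (adjusted p 0.00133), Col22a1 (0.00817), Col11a1 (0.015) and Col15a1 (0.0194) passed. Col27a1 (-0.60, beside -0.59 without the covariate) and Col4a4 (-0.63, beside -0.60) did not, and Col1a1 was added as higher and Col6a4 as lower. Without those 3 arrays (2 oil and 1 progesterone remained) limma called none of the 18193 genes, with an unadjusted p under 0.05 for 3379 genes and 13 collagens. The changes of the called members were then 2.11 for Col12a1, 0.69 for Col15a1, 0.68 for Col22a1, 0.87 for Col11a1, -0.45 for Col27a1 and -0.49 for Col4a4.

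**Figure D4:**
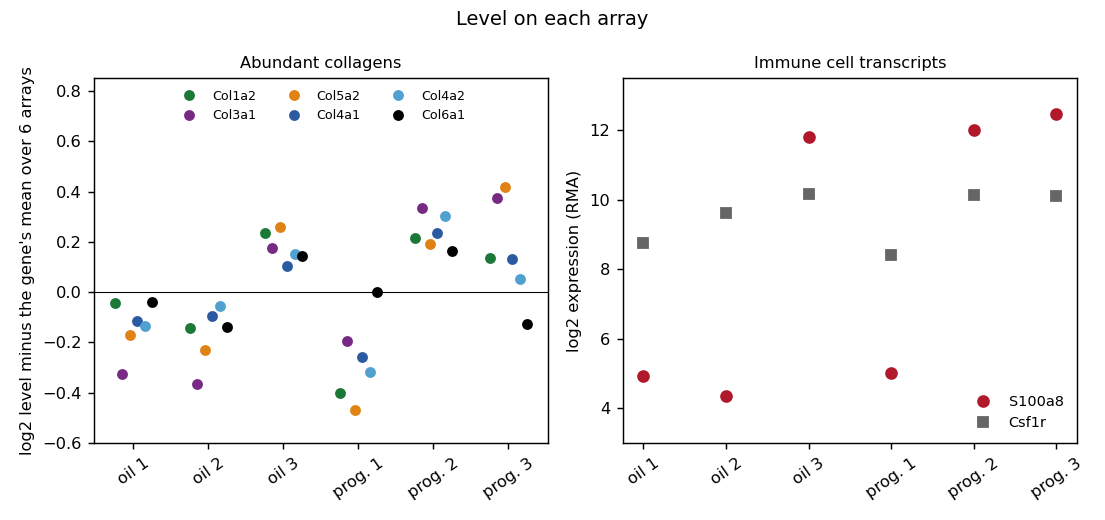
Left, log2 level of 6 strongly detected collagens on each array minus the gene's mean over the 6 arrays. Right, log2 expression of S100a8 and Csf1r on the same arrays. Except for Col6a1, the collagens shown lie above their mean on oil 3, progesterone 2 and progesterone 3, the arrays on which S100a8 reads 11.82 to 12.48. Of collagens not shown, Col6a3 and Col18a1 did not follow that pattern, and Col6a2 departed from it only on progesterone 1.

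In whole uterus, fewer cells of a type and less RNA per cell cannot be told apart, so markers of the cells that make collagen are given beside these results. Of 8 stromal fibroblast markers, 4 rose, among them Hoxa11 (1.13, adjusted p 0.00185), Hoxa10 (0.88) and Hand2 (0.64), and 4 had differences of 0 or below. Pdgfra, a receptor of stromal fibroblasts, gave -0.00 (adjusted p 0.99), Pdgfrb -0.23, Thy1 -0.31 and Vim -0.53, of which Vim passed with the replicate block (adjusted p 0.0355). The summed stromal level was 13.73 to 13.94 on oil and 13.92 to 14.03 on progesterone. None of 7 smooth muscle markers passed (1 with an unadjusted p under 0.05), with a summed level of 15.17 to 15.20 on oil and 14.98 to 15.23 on progesterone. Of 5 pericyte markers Abcc9 fell (-0.49, adjusted p 0.0281), Kcnj8 passed as lower only with the block (-0.65, 0.014), and the summed level was 12.81 to 12.98 on oil and 12.49 to 12.65 on progesterone. The 6 epithelial markers gave 13.62 to 13.75 on oil and 13.28 to 13.87 on progesterone (2 with an unadjusted p under 0.05). Cldn3 alone rose (1.15), and the list's median change was -0.335. The other 5 had negative differences, from -0.05 for Cdh1 to -0.76 for Krt18 (adjusted p 0.0589), and did not pass. None of 6 endothelial markers passed (3 with an unadjusted p under 0.05, summed levels 10.83 to 11.19 and 10.73 to 10.84). With the block Pecam1 (-0.46, adjusted p 0.0293) and Tek (-0.43, 0.0352) passed as lower. These markers of uterine stroma, muscle and epithelium were all read above background.

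Markers of tissues that may adhere to the uterus were read too. None of the 4 adipocyte markers measured passed (3 with an unadjusted p under 0.05), with a summed level of 8.07 to 8.91 on oil and 6.85 to 8.19 on progesterone, and Adipoq read 8.02, 8.11 and 7.08 on oil and 5.80, 7.21 and 4.39 on progesterone. With the replicate block 3 of the 4 passed as lower, namely Adipoq (-1.94, adjusted p 0.0135), Cidec (-0.58, 0.0338) and Retn (-0.64, 0.0116). Of 5 skeletal muscle markers Acta1 rose (1.58), while Ckm (-0.20), Mylpf (-0.27), Myh4 (-0.04, at background) and Tnnt3 (0.14) did not pass. The summed level of that list was 9.12 to 9.56 on oil and 10.38 to 11.36 on progesterone, whereas its median change was -0.04. None of 4 mesothelial markers (summed levels 9.83 to 10.04 on oil and 9.69 to 9.897 on progesterone) or 2 Schwann cell markers (7.78 to 8.05 and 7.50 to 7.71) passed, with 0 and 1 at an unadjusted p under 0.05, and Mbp of the Schwann list passed as lower with the block (-0.37, adjusted p 0.0404). Their part in the collagen results was not tested.

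Collagen chains are hydroxylated and glycosylated in the endoplasmic reticulum before they fold. Of 15 genes for these steps P4ha2 rose and 14 did not pass, with a median change of 0.03. P4ha2 encodes a catalytic subunit of prolyl 4-hydroxylase, the enzyme that makes the hydroxyproline on which the stability of the triple helix depends. It read 7.88, 7.44 and 7.68 on oil and 9.60, 9.77 and 9.41 on progesterone. No array of either group came near the other group, and the rise was 1.93 (SE 0.146, 3.80-fold, adjusted p 0.00137), which passed with any 1 array left out. Its paralogue P4ha1 gave 0.28 (adjusted p 0.338), and P4ha3 was at background.

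Folding and export of procollagen was represented by 12 genes, of which Creb3l1 and Tmem38b rose and 10 did not pass (median 0.22). Creb3l1 encodes a transcription factor released from the endoplasmic reticulum that drives genes of collagen secretion, Col1a1 among its known targets. It read 6.00, 5.67 and 6.17 on oil and 7.11, 7.30 and 7.43 on progesterone. The groups were well apart, and the rise of 1.33 (2.52-fold, adjusted p 0.00408) passed with any 1 array left out. Tmem38b, a channel protein of that compartment, read 7.22, 7.17 and 7.03 on oil and 7.58, 7.92 and 7.53 on progesterone. Its rise of 0.54 (1.45-fold, adjusted p 0.039) passed in 0 of the 6 fits with 1 array left out. Serpinh1, the collagen chaperone, gave 0.28 and did not pass (adjusted p 0.238), although its arrays did not overlap. Fkbp14, a folding enzyme, gave 0.46 and passed only with the replicate block (adjusted p 0.0298, and 0.0876 without).

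Procollagen processing and cross-linking had 10 genes measured, with 1 fall and 9 not past the threshold (median 0.02). Tll1, a protease of the family that removes the procollagen C-propeptide, read 4.58, 4.74 and 4.36 on oil and 4.14, 3.88 and 3.9 on progesterone. It fell by 0.59 (1.5-fold, adjusted p 0.0312) and passed in 2 of the 6 fits with 1 array left out. With the replicate block 2 genes of this list passed as lower, the second being Pcolce2, an enhancer of that cleavage (-0.98, adjusted p 0.0412, and 0.0784 without the block). Lox, the founding lysyl oxidase, gave -0.27 (adjusted p 0.579).

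Among 15 collagen-binding proteoglycans and fibril partners, Lum fell and 14 did not pass, with a median change of -0.24. Lum encodes lumican, which binds fibrils and limits their width. It read 11.70, 12.00 and 12.13 on oil and 10.52, 11.31 and 10.98 on progesterone, each progesterone array below each oil array. The change was -1.01 (2.01-fold, adjusted p 0.0257), and it passed in 2 of the 6 fits with 1 array left out. With the replicate block 3 members passed as lower, Prelp (-0.67, adjusted p 0.0174) and Tnxb (-0.49, 0.0231) in addition.

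Partners of type IV collagen in the basement membrane gave 1 rise among 12 genes (median -0.16). Lama1, a laminin chain, rose by 0.88 (1.84-fold, adjusted p 0.0336) and passed in 2 of the 6 fits with 1 array left out. It read 4.15, 3.56 and 3.71 on oil and 4.76, 4.93 and 4.36 on progesterone. Its oil mean was within 1 log2 unit of the highest control value. With the replicate block Lama4 (-0.47, adjusted p 0.0354) and Lamb2 (-0.51, 0.0327) passed as lower. Of 9 collagen receptors Ddr2, a receptor tyrosine kinase that binds fibrillar collagen, fell and 8 did not pass. Ddr2 read 10.09, 10.18 and 10.53 on oil and 9.34, 9.70 and 9.65 on progesterone, without overlap (-0.70, 1.63-fold, adjusted p 0.0291), and passed in 0 of the 6 fits with 1 array left out.

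None of 7 collagen-degrading enzymes passed (0 with an unadjusted p under 0.05), and the largest difference was that of the neutrophil collagenase Mmp8 (0.77, adjusted p 0.375). Of 14 genes of the TGF-beta pathway, a main inducer of collagen genes, 3 fell, none rose and 11 did not pass (median -0.10). Ccn2, a connective tissue growth factor gene and TGF-beta target, read 10.54, 10.84 and 10.43 on oil and 9.78, 10.11 and 9.72 on progesterone. All its progesterone arrays were below its oil arrays (-0.73, 1.66-fold, adjusted p 0.0243). Ltbp1, which tethers latent TGF-beta in the matrix, gave -0.48 (1.39-fold, 0.0299), and the signal transducer Smad3 gave -0.44 (1.36-fold, 0.0212). Ccn2 and Smad3 passed in 2 of the 6 fits with 1 array left out and Ltbp1 in 1.

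**Figure D5:**
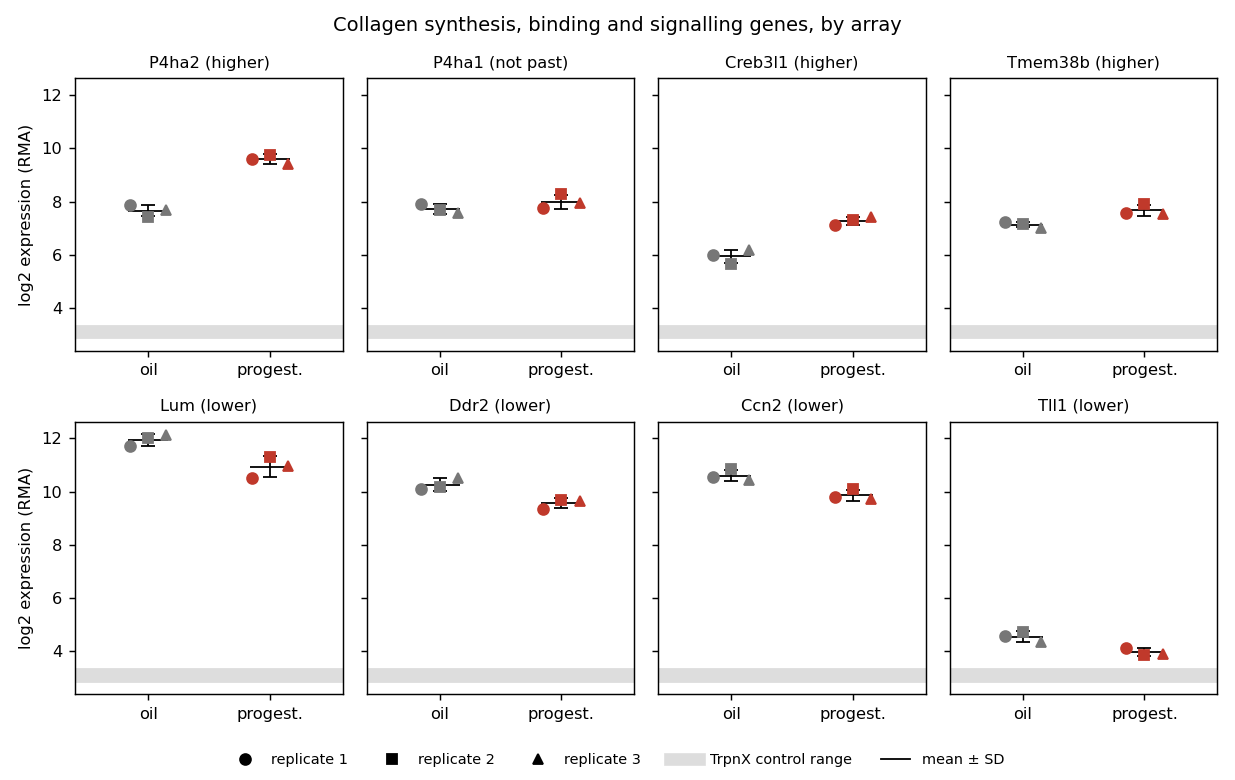
Log2 expression of 8 genes that modify, export, bind or signal through collagen, with 1 point per array, the group mean and SD, and the TrpnX control range in grey. P4ha2 and Creb3l1 are well apart between groups, P4ha1 overlaps, and Lum, Ddr2, Ccn2 and Tll1 are lower on every progesterone array.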

How the data were processed

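Whole-uterus RNA was hybridised to 6 Affymetrix arrays. The deposited values are log2 expression levels, made by the authors with RMA in Partek 6.6, per the submitters' processing notes; other settings are not given in the sources used here. Array medians were 5.51 to 5.53. Of 45101 probe sets, 34945 had 1 gene symbol in GEO's platform annotation, 932 several and 9160 none, beside 64 controls; only those with 1 symbol were used. For each of the resulting 18193 genes, the probe set of highest mean level was used.

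Progesterone and oil were compared with limma 3.58.1 (lmFit and eBayes, R 4.3.3) without a block. Adjustment was by Benjamini-Hochberg over the 18193 genes, and calls needed an adjusted p under 0.05. A summed level is log2 of the summed linear values of a list. Chain pairs were compared by an exact permutation test. The method was tested on simulated data. The number of arrays limits the precision.

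The labels number the replicates 1 to 3 in both groups. Deviations from group means correlated at 0.523, 0.141 and 0.636 between arrays of the same number. Between arrays of different numbers the correlations ran from -0.598 to 0.322. Oil 2 correlated more with progesterone 1 (0.322) than with progesterone 2 (0.141), so the pairing was weak for number 2. The pairing rests on these data, not on a stated design, so values with the replicate number as a block are given where they change a call of a collagen or list gene.

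The collagens, classes and lists were chosen with earlier results of these data known. Named were each collagen past the threshold, the highest and lowest of each class, up to 4 called members of each pathway list (or the largest change) and up to 3 of each marker list; further collagens and pathway genes were named after their values were seen. Alternatives were other normalizations, an offset, filters on low genes, other probe set rules, another variance model, the block, a stricter threshold, wider class borders and left-out arrays; the S100a8 fits were chosen after seeing the data.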

Additional observations from a re-analysis of the deposited data

How the results depend on the processing

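The main counts were 4 collagens higher and 2 lower (fibrillar 1 and 1, type IV 0 and 1, others 3 and 0). With the replicate block they were 6 and 4, with 2 fibrillar higher, 4 other collagens higher and 2 other collagens lower; the type IV counts did not change. At an adjusted p under 0.01, and without both arrays numbered 3, they were 2 and 0, with 0 fibrillar or type IV calls. With the lowest 50% of genes left out 2 were higher and 0 of them fibrillar, because Col11a1 and Col22a1 were among the genes left out. Quantile renormalization gave 1 lower and 0 in type IV. The mean of the probe sets gave 1 lower, 0 in type IV, and 2 fibrillar higher. The S100a8 and S100a9 covariate gave 2 fibrillar higher and 1 lower, none of it fibrillar or type IV and 1 among the others. Without the 3 arrays with high S100a8 (2 oil arrays and 1 progesterone array) no gene on the array passed, so all counts were 0 and say nothing about the collagens. Counting Col7a1, Col15a1 and Col18a1 with type IV gave that class 1 higher. With 1 array left out, collagens higher ran from 2 to 4, lower from 0 to 1, fibrillar higher and lower from 0 to 1, type IV lower from 0 to 1, and others higher from 2 to 3. Over all genes 1077 were higher and 1060 lower, beside 328 and 243 at an adjusted p under 0.01, 586 and 441 without both arrays numbered 3, and 379 to 848 and 278 to 907 with 1 array left out. The cause was not tested, apart from fewer arrays or genes in those fits.

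With 1 array left out, the median change of all collagens (0.06) ran from 0.012 (without oil 2) to 0.11 (without oil 3). That of the fibrillar ones (0.07) ran from 0.005 to 0.195 without the same arrays. For all collagens the median was 0.008 with the covariate and 0.135 without both arrays numbered 3. The type IV median change (0.05) was -0.076 with the covariate, -0.13 without the 3 arrays, 0.17 with wider borders, and from -0.072 (without progesterone 2) to 0.13 with 1 array left out. The median of the other collagens (0.02) was 0.16 with the lowest 50% left out, 0.18 without the arrays numbered 3, 0.17 without the 3 arrays, and from 0.018 to 0.10 with 1 array left out. Over the 42 collagens, the list genes called without a block, and all settings, 891 values kept their side of the threshold, 132 no longer passed, 8 newly passed and 0 reversed. A reversal was counted only where the gene passed in the main or the other fit. Sign changes of genes that passed in neither, such as Col14a1 (-0.55 to 0.38 with 1 array left out), count as kept. The 132 include the fit without the 3 arrays with high S100a8, which cannot show a loss because 1 progesterone array remained. Probe sets near background limit what can be seen of low genes.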
